A study of Mus musculus with 12 samples.

Results

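The Gadd45, Btg and Ier genes are 3 small families of early response genes, and their messenger RNA was measured here in the striatum of parkinsonian mice after L-DOPA. The 10 members were chosen by name, as every row of the transcript table whose symbol is Gadd45a, Gadd45b, Gadd45g, Btg1, Btg2, Btg3, Ier2, Ier3, Ier5 or Ier5l. They have 41 of the 189364 transcripts with a gene symbol in the table and are 10 of 52169 symbols. Each member was represented by its most abundant transcript, the one with the highest mean level in counts per 1000000 counts (CPM) over all libraries.

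The striata came from C57BL/6J mice whose dopaminergic fibres on the right side had been destroyed by 6-hydroxydopamine (6-OHDA) injected into the medial forebrain bundle. All mice then received L-DOPA, the precursor of dopamine, at 10 mg/kg with 7.5 mg/kg of the peripheral decarboxylase inhibitor benserazide, either once (acute) or on each of 9 days (chronic), and were killed 1 h after the last dose. The 4 groups of 3 libraries were the acute unlesioned, acute lesioned, chronic unlesioned and chronic lesioned striatum. Because every group had received L-DOPA, and no library from animals without L-DOPA was analysed here, a difference between the sides is a difference under L-DOPA, and the effect of the lesion itself cannot be told apart from the response of the lesioned striatum to the drug. The tissue was a set of punches holding all striatal cell types.

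Gadd45 proteins are small acidic stress sensors. They bind the MAP kinase kinase kinase Map3k4 and the replication clamp PCNA, and in neurons Gadd45b is known as an activity-induced gene linked to removal of methyl groups from DNA. Btg proteins recruit the CCR4-NOT deadenylase, which shortens the poly(A) tails of messenger RNAs, and restrain proliferation. Ier genes were named as immediate early response genes. Ier2, Ier5 and Ier5l share an amino-terminal domain, and Ier5 is known as a partner of the phosphatase PP2A that activates the heat shock factor HSF1, whereas Ier3 is an unrelated stress and NF-kB target that modulates cell survival.

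The libraries held between 87695043 and 173116525 counts, in which a read can be counted for several transcripts of a gene. Over the top transcript of each gene the totals were between 18373868 and 36492201. Striatal spiny neuron markers were present in every library, at a summed 981 to 1566 CPM. Markers of neighbouring tissue differed between libraries. The summed level of 5 cortical glutamatergic markers ranged from 12.3 to 28.6 CPM in the acute unlesioned, 1.57 to 14.6 CPM in the acute lesioned, 4.89 to 38.8 CPM in the chronic unlesioned and 1.54 to 21.1 CPM in the chronic lesioned libraries. The summed level of 3 choroid plexus markers was 463 CPM in chronic unlesioned replicate 2 and at most 2.99 CPM in the other libraries. The 5 astrocyte markers summed to 155 to 171 CPM in the acute unlesioned against 191 to 236 CPM in the acute lesioned libraries, and to 131 to 147 CPM in the chronic unlesioned against 166 to 217 CPM in the chronic lesioned libraries. Gfap, the intermediate filament gene of reactive astrocytes, was among them and rose in the lesioned striatum by 1.25 (log2, adjusted p = 0.000302 in edgeR's quasi-likelihood test, as defined with the first comparison) after acute and 1.96 (edgeR adjusted p = 0.000445) after chronic L-DOPA, with 2 of 5 and 1 of 5 astrocyte markers called. Of the 5 spiny neuron markers 4 fell in the acute comparison. In the same comparison 2 of 6 microglial markers rose, led by C1qa at 0.47 (edgeR adjusted p = 0.00188), and their sum was 57.0 to 59.6 CPM in the unlesioned and 62.9 to 74.7 CPM in the lesioned libraries. The oligodendrocyte marker Mag rose by 0.30 (edgeR adjusted p = 0.0451), and the cortical marker Neurod6 (-1.83, edgeR adjusted p = 0.0438) and the choroid plexus marker Ttr (-2.01, edgeR adjusted p = 0.00571) were lower. In the chronic comparison Ttr was lower too (-8.34, edgeR adjusted p = 0.0374), against the group that holds the 463 CPM library. No marker of these lists was at 0 in a group. The part of these cell types in the results was not tested. In such tissue, fewer cells of a type and less RNA per cell cannot be told apart.

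The sequences before the transcription starts are shown for the members whose levels differed most or whose start lies close to a known response element. They were read from the mm9 genome, on the strand of the gene, and end 1 base before the start of the RefSeq transcript. Capitals mark matches, found on either strand, to a cAMP response element (CRE, TGACGTCA), its shorter form TGACG, a CArG box (the binding sequence of serum response factor, searched by its usual consensus), an EGR site (GCGNGGGCG) or a TATA box (TATAAA).

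Btg2, chr1:135975733-135976032, minus strand: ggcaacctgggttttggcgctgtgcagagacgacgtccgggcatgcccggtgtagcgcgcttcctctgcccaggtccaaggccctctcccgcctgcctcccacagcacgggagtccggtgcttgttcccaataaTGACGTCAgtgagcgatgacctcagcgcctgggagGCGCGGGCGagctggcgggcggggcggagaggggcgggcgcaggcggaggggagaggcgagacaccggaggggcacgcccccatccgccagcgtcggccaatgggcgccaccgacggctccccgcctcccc

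Ier2, chr8:87186752-87186901, minus strand: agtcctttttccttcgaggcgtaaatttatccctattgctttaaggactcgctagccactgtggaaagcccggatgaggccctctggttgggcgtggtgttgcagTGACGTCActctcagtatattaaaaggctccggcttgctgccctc

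Gadd45b, chr10:80392686-80392835, plus strand: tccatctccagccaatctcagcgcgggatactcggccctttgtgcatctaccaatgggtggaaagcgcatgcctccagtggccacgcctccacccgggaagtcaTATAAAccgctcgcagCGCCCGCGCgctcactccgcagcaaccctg

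Gadd45g, chr13:51941744-51942043, plus strand: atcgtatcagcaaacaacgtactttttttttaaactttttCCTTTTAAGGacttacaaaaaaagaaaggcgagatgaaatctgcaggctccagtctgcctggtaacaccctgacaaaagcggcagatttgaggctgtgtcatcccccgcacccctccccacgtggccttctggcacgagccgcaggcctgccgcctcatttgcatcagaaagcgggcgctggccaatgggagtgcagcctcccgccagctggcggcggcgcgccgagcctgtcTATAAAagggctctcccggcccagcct

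Btg1, chr10:96079335-96079634, plus strand: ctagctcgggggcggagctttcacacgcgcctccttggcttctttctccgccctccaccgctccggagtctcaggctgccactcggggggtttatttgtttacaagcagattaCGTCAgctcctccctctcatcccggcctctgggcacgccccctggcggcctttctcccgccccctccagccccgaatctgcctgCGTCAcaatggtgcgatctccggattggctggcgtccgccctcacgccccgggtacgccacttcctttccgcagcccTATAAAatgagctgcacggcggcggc

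Ier3, chr17:35958508-35958657, plus strand: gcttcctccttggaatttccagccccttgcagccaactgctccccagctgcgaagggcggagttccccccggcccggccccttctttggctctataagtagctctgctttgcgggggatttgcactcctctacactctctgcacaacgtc

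Over the 300 bases upstream of the start, Btg2 and Ier2 held a full CRE, at -166 to -159 and -45 to -38, where position -1 is the last base before the start. A full CRE was present in 2.3% of 20264 promoters of the same length. The shorter TGACG, which lies inside the full element, was found in Btg1, Btg2 and Ier2 and in 23.3% of all promoters. Gadd45g held a CArG box at -260 to -251, a match found in 1.45% of promoters. An EGR site was present in Gadd45b at -30 to -22 and in Btg2 at -131 to -123, against 7.73% of promoters. TATA boxes were found in Gadd45b, Gadd45g and Btg1 and in 14.1% of promoters. The AP-1 letters TGANTCA were in none of the 10 promoters and in 7.1% of all. Gadd45a, Btg3, Ier3, Ier5 and Ier5l held none of these motifs. A match is a description of the sequence, and no match says only that these letters are not in the window.

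**Figure D1:**
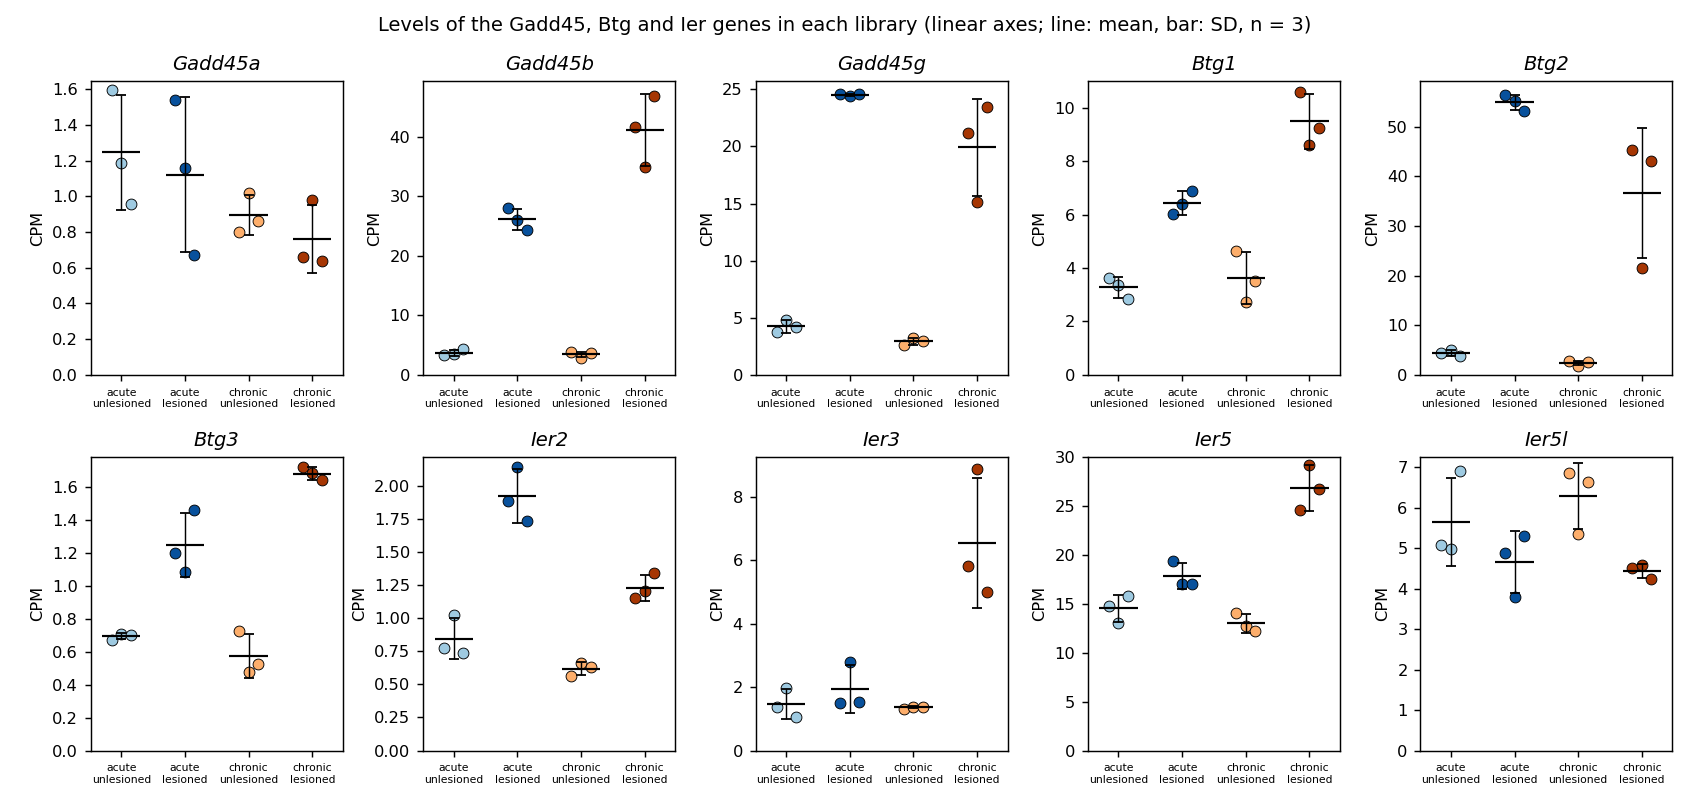
Levels of the 10 members in each of the 12 libraries, in CPM on linear axes that start at 0. Points are libraries, lines are group means and bars are SDs over 3 libraries. The lesioned libraries lie above the unlesioned ones for Gadd45b, Gadd45g, Btg1, Btg2, Btg3, Ier2 and Ier5 under both treatments, and for Ier3 under chronic L-DOPA.

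The first comparison set the 2 sides of the striatum against each other after 1 dose of L-DOPA. Of the 10 members, 7 were higher in the lesioned striatum and none was lower, at a p under 0.05 from edgeR's quasi-likelihood test, adjusted by the Benjamini-Hochberg method over every transcript tested (written edgeR adjusted p from here on). Of all transcripts tested, 6.85% were called higher and 6.02% lower, 12.9% in either direction. The same 7 members were those whose lesioned libraries all lay above the unlesioned ones, as in 15.4% of transcripts, and none had all of them below, as in 17.2%. The members that rose were Gadd45b, Gadd45g, Btg1, Btg2, Btg3, Ier2 and Ier5. Btg3 is counted here and in the later comparisons by a cDNA clone whose reads cannot be told apart from those of Cxadr on the opposite strand, and its RefSeq transcript did not pass the acute test (log2 0.12, edgeR adjusted p = 0.914). The median log2 fold change over all 10 members was 0.91, against 0.02 over all genes.

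After 9 days the same comparison gave 8 members higher and 1 lower in the lesioned striatum, with Ier3 added to those that rose and Ier5l the one that fell. Among all transcripts 7.71% were called higher and 4.33% lower in this comparison, 12% in either direction. The libraries of the sides did not overlap for these 9 members, against 15.7% of transcripts without overlap upwards and 15.1% downwards. The median log2 fold change of the members was 1.47, against -0.01 over all genes. Only Gadd45a passed the test in neither treatment.

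**Figure D2:**
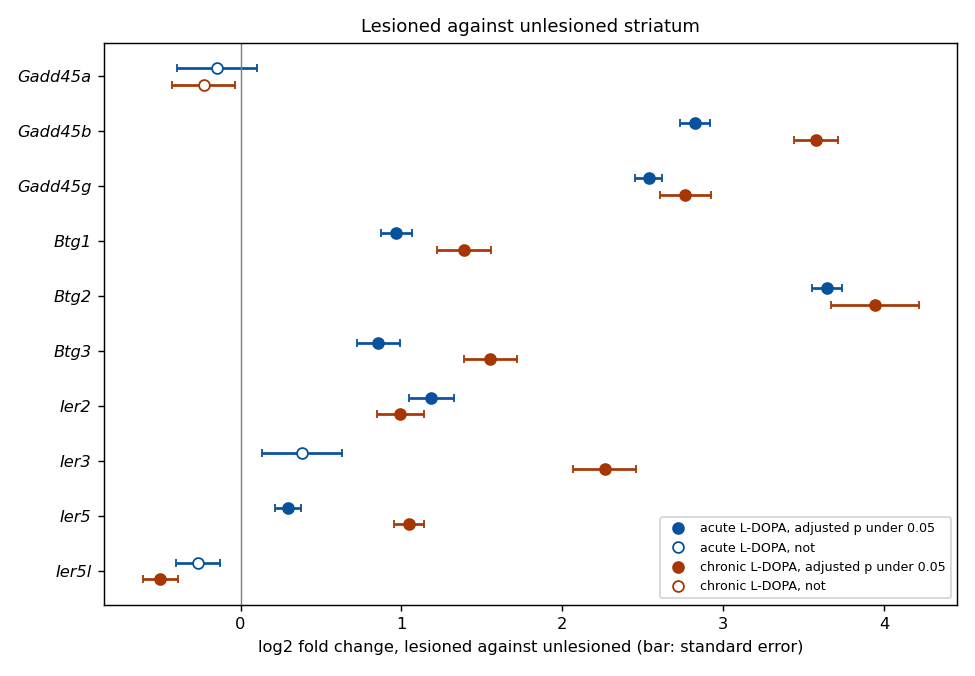
Log2 fold change of the lesioned against the unlesioned striatum for the 10 members under acute and chronic L-DOPA. Points are edgeR estimates, bars are standard errors, and filled points have an adjusted p under 0.05. Btg2, Gadd45b and Gadd45g have the largest values in both treatments, between 2.54 and 3.94, and Ier3 moves from 0.38 to 2.26.

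Among the Gadd45 genes, Gadd45b (chr10:80392818-80394949, plus strand, 4 exons) had the larger lesion difference in both treatments. Its level was 3.33, 3.49 and 4.31 CPM in the acute unlesioned libraries and 27.9, 25.9 and 24.4 CPM in the acute lesioned libraries. It was 3.77, 2.91 and 3.65 CPM in the chronic unlesioned libraries and 41.6, 34.9 and 46.8 CPM in the chronic lesioned libraries. No lesioned library overlapped an unlesioned one, and the chronic lesioned libraries were the highest of all. The lesioned striatum was 7.08-fold higher after acute L-DOPA (log2 2.82 ± 0.09 SE, edgeR adjusted p = 1.72e-09). After chronic L-DOPA it was 11.9-fold higher (log2 3.58 ± 0.14 SE, edgeR adjusted p = 6.57e-08). On the scale of the whole table, Gadd45b ranked 67th of 1665 genes called higher in the acute and 39th of 1671 in the chronic comparison by fold change.

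Gadd45g (chr13:51942044-51943844, plus strand, 4 exons), its paralog, was at 3.75, 4.82 and 4.16 CPM in the acute unlesioned libraries and 24.6, 24.4 and 24.6 CPM in the acute lesioned libraries. In the chronic libraries it was at 2.63, 3.21 and 2.95 CPM on the unlesioned side and 21.2, 15.2 and 23.4 CPM on the lesioned side. The sides again did not overlap, and the acute lesioned libraries were the tightest group of the 4, with an SD of 0.0996 CPM. The lesioned striatum was 5.81-fold higher in the acute (log2 2.54 ± 0.08 SE, edgeR adjusted p = 1.57e-09) and 6.80-fold higher in the chronic comparison (log2 2.76 ± 0.16 SE, edgeR adjusted p = 1.26e-06).

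Gadd45a (chr6:66985090-66987401, minus strand, 4 exons), the family member best known as a p53 target after DNA damage, behaved otherwise. It was at 1.60, 1.19 and 0.960 CPM in the acute unlesioned and 1.54, 1.16 and 0.671 CPM in the acute lesioned libraries. The chronic values were 0.801, 1.02 and 0.860 CPM on the unlesioned and 0.660, 0.980 and 0.638 CPM on the lesioned side. The libraries of the 2 sides overlapped in both treatments. The difference was -0.15 ± 0.25 (log2, SE) after acute L-DOPA (edgeR adjusted p = 0.748) and -0.23 ± 0.20 after chronic L-DOPA (edgeR adjusted p = 0.518). Gadd45a was lower on the lesioned side in all 6 pairs of libraries with the same replicate number, and in the fit that blocks on that number it differed by -0.16 ± 0.12 (edgeR adjusted p = 0.366) and -0.25 ± 0.15 (edgeR adjusted p = 0.273), without passing the test. In the fit without the block the acute difference took the other sign when 1 of 2 libraries was left out, at 0.08 without acute unlesioned replicate 1 and 0.12 without acute lesioned replicate 3. Gadd45a overlaps E230016M11Rik on the opposite strand (0.362 CPM on average against 1.01 CPM for Gadd45a), and whether the counting used strand is not given in the sources used here.

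Among the Btg genes, Btg2 (chr1:135971442-135975732, minus strand, 2 exons), an antiproliferative gene induced by p53 and by growth factors, had the largest lesion difference of the 10 members. It was at 4.40, 5.04 and 3.75 CPM in the acute unlesioned libraries and 56.4, 55.1 and 53.2 CPM in the acute lesioned libraries. In the chronic libraries it was at 2.74, 1.85 and 2.54 CPM on the unlesioned side and 45.2, 21.5 and 43.0 CPM on the lesioned side. Every lesioned library exceeded every unlesioned one, and chronic lesioned replicate 2 lay well below the other 2 libraries of its group. The lesioned striatum was 12.5-fold higher after acute L-DOPA (log2 3.64 ± 0.10 SE, edgeR adjusted p = 4.00e-10) and 15.4-fold higher after chronic L-DOPA (log2 3.94 ± 0.27 SE, edgeR adjusted p = 6.50e-06). Btg2 ranked 37th of 1665 and 30th of 1671 among the genes called higher.

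Btg1 (chr10:96079635-96085447, plus strand, 2 exons), the closest paralog of Btg2, rose by a smaller amount. It was at 3.64, 3.36 and 2.85 CPM in the acute unlesioned and 6.01, 6.38 and 6.89 CPM in the acute lesioned libraries. The chronic unlesioned libraries had 4.65, 2.71 and 3.51 CPM and the chronic lesioned libraries 10.6, 8.61 and 9.25 CPM. The sides did not overlap in either treatment. Btg1 was 1.96-fold higher in the lesioned striatum after acute (log2 0.97 ± 0.09 SE, edgeR adjusted p = 4.11e-05) and 2.62-fold higher after chronic L-DOPA (log2 1.39 ± 0.17 SE, edgeR adjusted p = 0.000385).

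For Btg3 few of the reads came from the RefSeq form of the gene. Its most abundant transcript was a cDNA clone (chr16:78332882-78373581, minus strand, 4 exons), which extends beyond the 3' end of the RefSeq transcript (chr16:78360105-78377030) into the region of Cxadr, a gene on the opposite strand that encodes the coxsackievirus and adenovirus receptor. The clone was at 0.672, 0.706 and 0.705 CPM in the acute unlesioned, 1.20, 1.09 and 1.46 CPM in the acute lesioned, 0.728, 0.476 and 0.524 CPM in the chronic unlesioned and 1.72, 1.68 and 1.64 CPM in the chronic lesioned libraries. Its lesioned libraries were above the unlesioned ones in both treatments, by 0.86 ± 0.14 (log2, SE, edgeR adjusted p = 0.00168) and 1.55 ± 0.17 (edgeR adjusted p = 0.000168).

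The RefSeq transcript of Btg3 had only 4 to 14 counts in each library. It summed to 33 counts in the acute unlesioned, 26 in the acute lesioned, 24 in the chronic unlesioned and 18 in the chronic lesioned libraries. Its acute difference was 0.12 ± 0.54 (log2, SE, edgeR adjusted p = 0.914), and in the chronic comparison it was too low to be tested. Cxadr was at 3.62 to 4.57 CPM in the acute unlesioned, 7.98 to 8.89 CPM in the acute lesioned, 3.66 to 4.78 CPM in the chronic unlesioned and 10.5 to 10.6 CPM in the chronic lesioned libraries. It was itself higher in the lesioned striatum, by 0.98 ± 0.09 after acute (log2, SE, edgeR adjusted p = 2.70e-05) and 1.33 ± 0.10 after chronic L-DOPA (edgeR adjusted p = 1.52e-05). With unknown strand use, reads of the clone and of Cxadr cannot be told apart, and all Btg3 values not named as RefSeq are those of the clone.

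**Figure D3:**
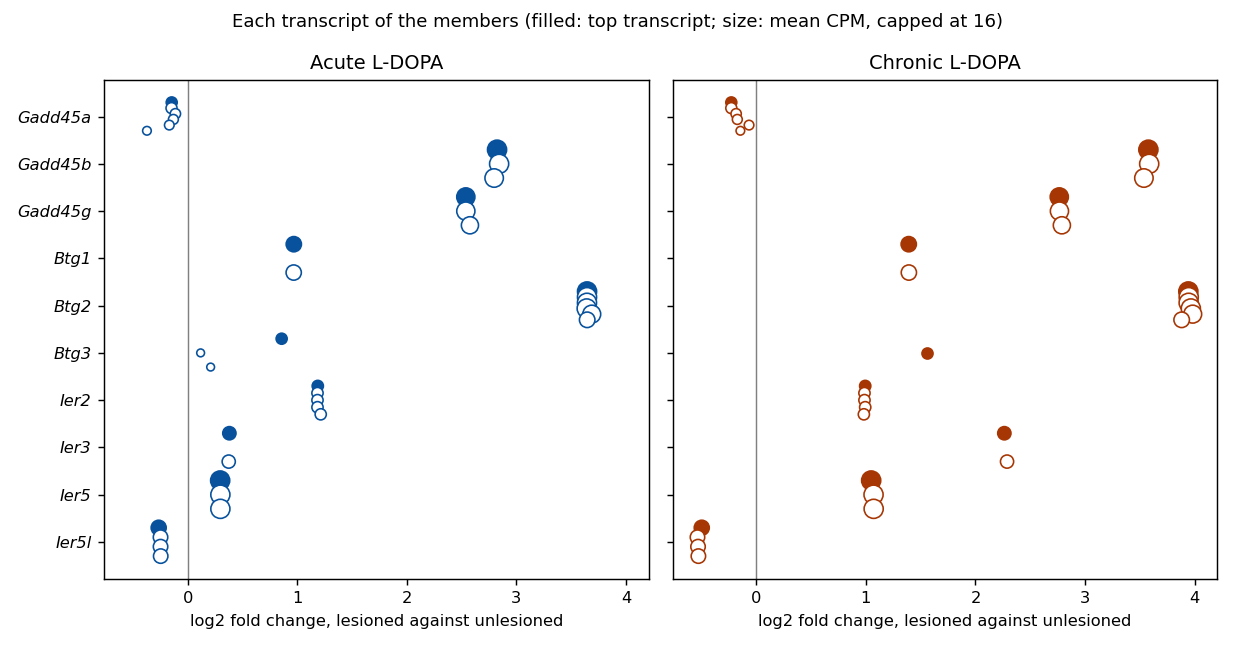
Log2 fold change of the lesioned against the unlesioned striatum for every transcript of the members that was tested, on a common axis. Filled points are the top transcripts, open points the others, and the area grows with the mean level. After acute L-DOPA the clone of Btg3 stands at 0.86 and its other transcripts at 0.12 and 0.21, and those of Gadd45a spread from -0.37 to -0.11.

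The 6 tested Gadd45a transcripts lay between -0.37 and -0.11 (log2) in the acute comparison and between -0.08 and 0.23 in the change of lesion effect, and none was called. The transcripts of the members other than Btg3 and Gadd45a lay closer together in the lesion comparisons. The 6 tested Btg2 transcripts lay between 3.64 and 3.69 (log2) in the acute and between 3.88 and 3.98 in the chronic comparison, and all were called. The 3 Gadd45b transcripts lay between 2.80 and 2.84 and between 3.54 and 3.59. Many of these transcripts share exons and reads, so their likeness is no independent support. In Btg1 the RefSeq transcript of 5010 bases held 7798 counts over the 12 libraries, of which a shorter form of 1814 bases that ends at chr10:96082259 held 7751. The clone that covers only the distal part of the last exon, from chr10:96082444, had 0 to 7 counts in each library. Its level per kilobase was therefore 1.13 CPM by the long and 3.10 CPM by the short form.

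Among the Ier genes, Ier2 (chr8:87185230-87186751, minus strand, 1 exon), a nuclear protein gene of the first wave of growth factor response, was low but differed clearly between the sides. It was at 0.775, 1.02 and 0.735 CPM in the acute unlesioned and 1.89, 2.14 and 1.73 CPM in the acute lesioned libraries. The chronic unlesioned libraries had 0.562, 0.659 and 0.632 CPM and the chronic lesioned libraries 1.15, 1.20 and 1.34 CPM. The sides did not overlap within a treatment. Ier2 was 2.28-fold higher after acute (log2 1.19 ± 0.14 SE, edgeR adjusted p = 0.000194) and 1.99-fold higher after chronic L-DOPA (log2 0.99 ± 0.14 SE, edgeR adjusted p = 0.00137).

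Ier3 (chr17:35958632-35959858, plus strand, 2 exons) passed the test between the sides under chronic but not under acute L-DOPA. Its acute values were 1.38, 1.97 and 1.05 CPM in the unlesioned and 1.49, 2.80 and 1.53 CPM in the lesioned libraries, which overlapped. Its chronic values were 1.33, 1.39 and 1.38 CPM in the unlesioned and 5.81, 8.87 and 4.99 CPM in the lesioned libraries. The chronic lesioned libraries lay above all 9 others, with replicate 2 the highest. The acute difference was 0.38 ± 0.25 (log2, SE, edgeR adjusted p = 0.348), and the chronic lesioned striatum was 4.80-fold above the unlesioned (log2 2.26 ± 0.20 SE, edgeR adjusted p = 3.52e-05). In the fit that blocks on replicate number, the acute difference of Ier3 passed the test at the same size (log2 0.38 ± 0.11 SE, edgeR adjusted p = 0.0205). Without the block the value rested on single libraries, at 0.04 without acute lesioned replicate 2, 0.19 without acute unlesioned replicate 3 and 0.65 without acute unlesioned replicate 2, and it passed the test in none of the 6 fits that left out 1 library (edgeR adjusted p between 0.131 and 0.927).

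Ier5 (chr1:156943497-156946766, minus strand, 1 exon) had the highest mean level per kilobase of the Ier genes in all 4 groups. Its values were 14.8, 13.1 and 15.8 CPM in the acute unlesioned and 19.4, 17.0 and 17.1 CPM in the acute lesioned libraries. After chronic L-DOPA they were 14.0, 12.8 and 12.2 CPM on the unlesioned and 24.6, 29.2 and 26.8 CPM on the lesioned side. The sides did not overlap, narrowly so in the acute comparison. The difference was 0.30 ± 0.08 after acute (log2, SE, edgeR adjusted p = 0.0301) and 1.05 ± 0.09 after chronic L-DOPA (edgeR adjusted p = 3.77e-05). The acute call was lost without acute unlesioned replicate 1 (edgeR adjusted p = 0.0747) or 2 (0.127), or without acute lesioned replicate 1 (0.0781) or 2 (0.0561).

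Ier5l (chr2:30327058-30329739, minus strand, 1 exon), the paralog of Ier5, went the other way. It was at 5.08, 4.98 and 6.92 CPM in the acute unlesioned and 4.87, 3.80 and 5.30 CPM in the acute lesioned libraries, which overlapped. It was at 6.85, 5.35 and 6.65 CPM in the chronic unlesioned and 4.52, 4.58 and 4.25 CPM in the chronic lesioned libraries, which did not. The difference was -0.27 ± 0.14 (log2, SE, edgeR adjusted p = 0.226) after acute and -0.50 ± 0.11 (edgeR adjusted p = 0.0139) after chronic L-DOPA. In the blocked fit the acute difference passed the test (log2 -0.26 ± 0.07 SE, edgeR adjusted p = 0.0216). The chronic call was lost without chronic unlesioned replicate 1 (edgeR adjusted p = 0.0606) or 3 (0.0634) or without chronic lesioned replicate 3 (0.0618). The cortical glutamatergic markers stood at 22.6, 4.89 and 38.8 CPM in the chronic unlesioned libraries 1, 2 and 3, and at 21.1, 1.62 and 1.54 CPM in the chronic lesioned libraries, and their part in the difference was not tested.

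The next comparison asked which members differed between chronic and acute treatment on the lesioned side. Here 5 members were higher after chronic L-DOPA, Gadd45b, Btg1, Btg3, Ier3 and Ier5, and 1 was lower, Ier2. Among all transcripts 12.1% were called higher and 11.2% lower, and 23.3% in either direction. Without overlap between the groups of libraries, 5 members were higher and 3 lower, against 20.6% and 19.7% of transcripts. Glial markers differed in the same comparison, where 6 of 6 oligodendrocyte, 4 of 6 microglial and 3 of 5 astrocyte markers fell and none rose. Of the 4 blood markers 3 fell, led by the globin gene Hbb-b2 at -1.89 (log2, edgeR adjusted p = 0.00337), while 1 spiny neuron, 1 endothelial and 1 choroid plexus marker rose. Oligodendrocyte markers summed to 2114 to 3496 CPM in the acute and 1162 to 2098 CPM in the chronic lesioned libraries, microglial markers to 62.9 to 74.7 CPM and 42.1 to 52.3 CPM, and blood markers to 4.99 to 9.77 CPM and 1.69 to 3.29 CPM. Their part in the members' differences was not tested. The largest difference was that of Ier3, at 1.78 ± 0.25 (log2, SE, edgeR adjusted p = 0.000810), a 3.44-fold higher level. Gadd45b was 1.58-fold higher (log2 0.66 ± 0.11 SE, edgeR adjusted p = 0.00181), Ier5 was 1.51-fold higher (log2 0.59 ± 0.09 SE, edgeR adjusted p = 0.00107) and Btg1 was 1.48-fold higher (log2 0.56 ± 0.10 SE, edgeR adjusted p = 0.00247). All chronic lesioned libraries of these genes were above all acute lesioned ones. The clone of Btg3 was 0.42 ± 0.13 higher (log2, SE, edgeR adjusted p = 0.0407), a call that was lost in DESeq2 (adjusted p = 0.0780) and without any 1 of 5 libraries, acute lesioned replicate 1 or 2 or chronic lesioned replicate 1, 2 or 3, with edgeR adjusted p between 0.0516 and 0.140.

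Ier2 fell by 0.63 ± 0.13 on the log2 scale (edgeR adjusted p = 0.00557), to 0.645 of its acute level. Btg2 and Gadd45g were also lower in every chronic than in every acute lesioned library, without passing the test. Btg2 differed by -0.58 ± 0.21 (log2, SE, edgeR adjusted p = 0.0664) and passed it in a fit of all 12 libraries (edgeR adjusted p = 0.0444), with no filter on low counts (edgeR adjusted p = 0.0305) or without chronic lesioned replicate 2 (log2 -0.31, adjusted p = 0.0103). Gadd45g differed by -0.30 ± 0.13 (edgeR adjusted p = 0.122) and passed it without chronic lesioned replicate 3 (adjusted p = 0.0440). Gadd45a differed by -0.57 ± 0.27 (edgeR adjusted p = 0.160), and passed it without acute lesioned replicate 3 (adjusted p = 0.0243). Ier5l differed by -0.07 ± 0.12 (edgeR adjusted p = 0.704).

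**Figure D4:**
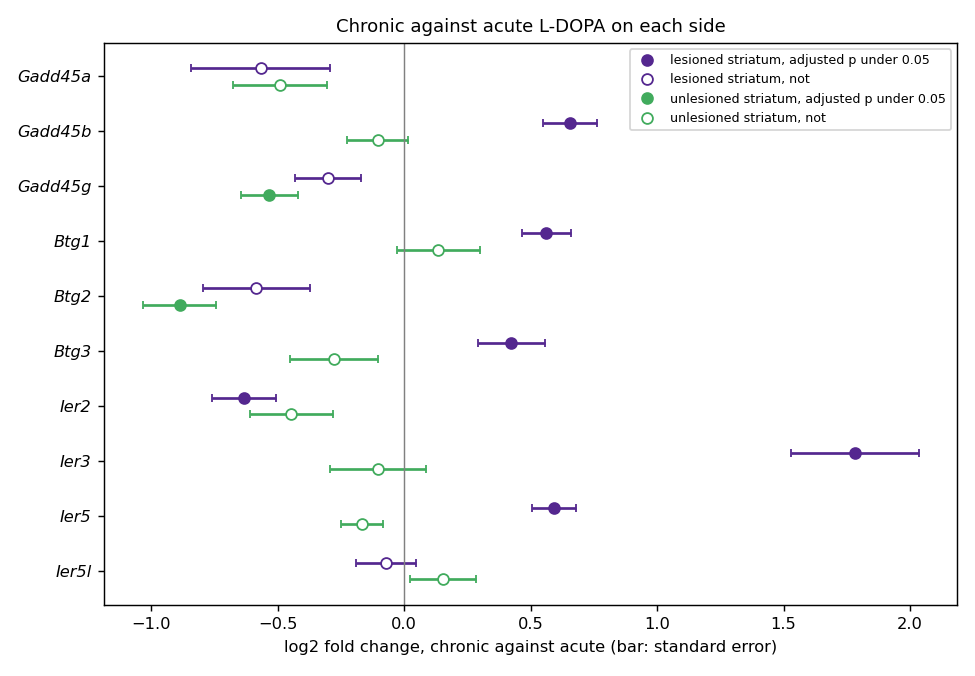
Log2 fold change of chronic against acute L-DOPA for the 10 members, in the lesioned and the unlesioned striatum. Points are edgeR estimates, bars are standard errors, and filled points have an adjusted p under 0.05. In the lesioned striatum Ier3 stands at 1.78 and Ier2 at -0.63, and in the unlesioned striatum only Btg2 (-0.89) and Gadd45g (-0.53) are filled.

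On the unlesioned side 2 members were called, both lower after chronic L-DOPA, where 1.64% of all transcripts were called lower, 0.968% higher and 2.61% in either direction. Btg2 fell by 0.89 ± 0.14 on the log2 scale (edgeR adjusted p = 0.0173) and Gadd45g by 0.53 ± 0.11 (edgeR adjusted p = 0.0365). Their 3 chronic libraries were below the 3 acute ones, as were those of Ier2, which differed by -0.45 ± 0.17 (edgeR adjusted p = 0.156), and no member had all chronic libraries above. Of all transcripts 13.6% had no overlap in the lower and 12.6% in the higher direction. In the same comparison 2 of 6 microglial markers fell, led by Tmem119 at -0.63 (log2, edgeR adjusted p = 0.0218), as did 2 of 5 astrocyte markers, led by Aqp4 at -0.55 (edgeR adjusted p = 0.0393), and the endothelial marker Slco1a4 rose by 0.58 (edgeR adjusted p = 0.0336). Summed microglial markers were at 57.0 to 59.6 CPM in the acute and 40.5 to 51.7 CPM in the chronic unlesioned libraries, and summed astrocyte markers at 155 to 171 CPM and 131 to 147 CPM. Their part in the members' differences was not tested. Both calls were lost in a fit of all 12 libraries, with adjusted p = 0.0525 for Btg2 and 0.0560 for Gadd45g, and with transcripts summed per gene, with edgeR adjusted p of 0.0519 and 0.0820. Btg2 was also lost without acute unlesioned replicate 1 or 2 or chronic unlesioned replicate 3, with edgeR adjusted p of at most 0.103, and Gadd45g without any library but chronic unlesioned replicate 2, with edgeR adjusted p of at most 0.145. Without chronic unlesioned replicate 2, the library with the choroid plexus markers, both stayed called. The other 7 members differed by between -0.49 and 0.15 (log2), with edgeR adjusted p of 0.160 or more.

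The difference between the lesion effects of the 2 treatments was tested itself, as an interaction over all 12 libraries. For 3 members the lesioned side rose further above the unlesioned side under chronic than under acute L-DOPA, and for none was the change called lower, where 3.22% of all transcripts were called higher and 1.3% lower, 4.52% in either direction. Ier3 had the largest change, 1.88 ± 0.37 (log2, SE, edgeR adjusted p = 0.00847). Ier5 changed by 0.76 ± 0.13 (edgeR adjusted p = 0.00252) and Gadd45b by 0.76 ± 0.17 (edgeR adjusted p = 0.0214). The calls of Ier3 and Ier5 held without any 1 of the 12 libraries, with edgeR adjusted p of at most 0.0268 and 0.00979. Gadd45b lost its call without acute unlesioned replicate 3 (edgeR adjusted p = 0.0660), acute lesioned replicate 2 (0.0522) or 3 (0.0516), or chronic lesioned replicate 1 (0.0503) or 3 (0.0535), with a value between 0.64 and 0.87 throughout.

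Gadd45g, the paralog of Gadd45b, had a change of 0.23 ± 0.19 (log2, SE, edgeR adjusted p = 0.552) and Btg2 one of 0.30 ± 0.31 (edgeR adjusted p = 0.644). Btg1 changed by 0.42 ± 0.21 (edgeR adjusted p = 0.297) and Ier2 by -0.19 ± 0.20 (edgeR adjusted p = 0.659). The clone of Btg3 changed by 0.70 ± 0.21 (edgeR adjusted p = 0.0799) and passed the test with the block (edgeR adjusted p = 0.0293). For the RefSeq transcript of Btg3 the value was -0.21 ± 0.77 (edgeR adjusted p = 0.919). Gadd45a (-0.08 ± 0.37) and Ier5l (-0.23 ± 0.20) had edgeR adjusted p of 0.939 and 0.579.

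**Figure D5:**
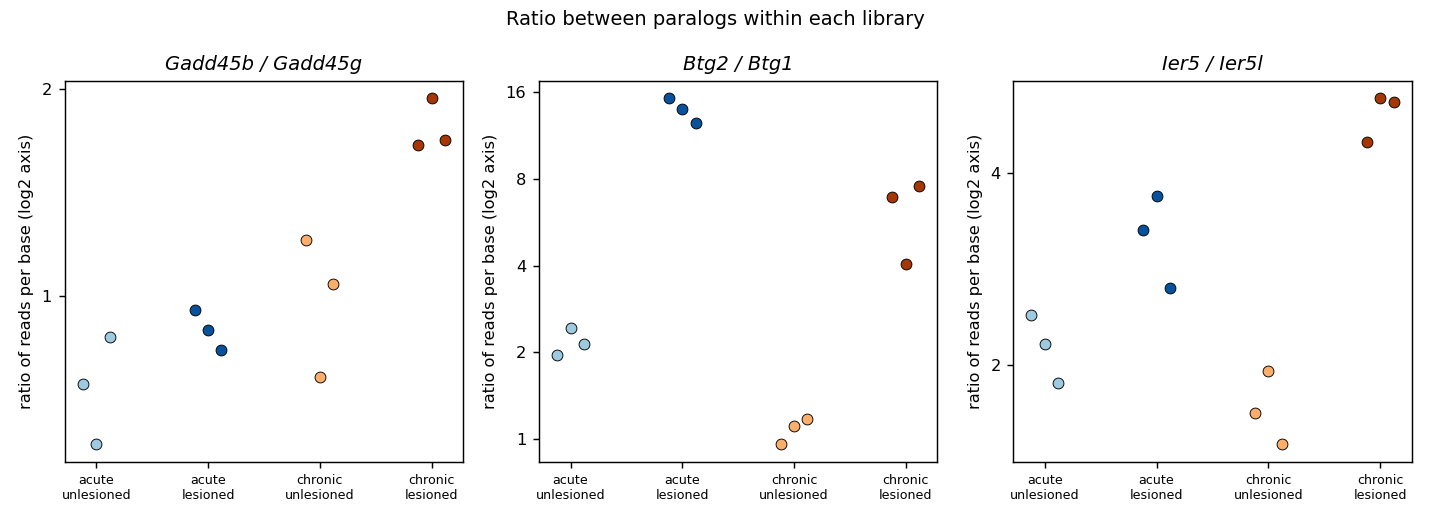
Ratio of the reads per base of 2 paralogs within each library, by the lengths of their top transcripts, on log2 axes. Points are libraries in 4 groups. The Gadd45b to Gadd45g ratio is between 1.66 and 1.94 in the chronic lesioned libraries and at most 1.21 in all others, and the Btg2 to Btg1 ratio is at most 2.44 in the unlesioned and at least 4.06 in the lesioned libraries.

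Ratios between paralogs within a library do not depend on its scaling, and were taken per base of the top transcripts as a description, with no test. Gadd45b stood at 0.610 to 0.872 of Gadd45g in the acute unlesioned and at 0.836 to 0.957 in the acute lesioned libraries. In the chronic unlesioned libraries the ratio was 0.765 to 1.21, and in the chronic lesioned libraries 1.66 to 1.94. By these transcripts the chronic lesioned libraries were the only group in which Gadd45b exceeded Gadd45g in all 3 libraries. The size depends on the length chosen. By the Gadd45b form of 803 bases against the same Gadd45g transcript, the ratio was 0.957 to 1.12 in the acute lesioned and 1.96 to 2.34 in the chronic lesioned libraries, and against the Gadd45g form of 863 bases it was above 1 in all 3 chronic unlesioned libraries too (1.07 to 1.58). The ratio of Btg2 to Btg1 was 1.97 to 2.44 in the acute unlesioned, 12.6 to 15.2 in the acute lesioned, 0.959 to 1.18 in the chronic unlesioned and 4.06 to 7.56 in the chronic lesioned libraries. By the Btg1 form of 1814 bases, which held nearly all its counts, the same ratio was 0.713 to 0.890, 4.57 to 5.56, 0.349 to 0.431 and 1.48 to 2.76 in these groups, so that Btg2 lay below Btg1 in the unlesioned libraries. By either form it was lower after chronic than after acute L-DOPA on both sides, with no overlap between libraries. Ier5 exceeded Ier5l 1.87 to 2.39 times in the acute unlesioned, 2.64 to 3.67 times in the acute lesioned, 1.5 to 1.96 times in the chronic unlesioned and 4.46 to 5.23 times in the chronic lesioned libraries.

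Per kilobase of the top transcript, the order of the members differed between the sides. In the acute unlesioned striatum Ier5 had 4.45 ± 0.42 CPM per kilobase (SD, n = 3), Gadd45g 3.93 ± 0.50 and Gadd45b 2.89 ± 0.41. The libraries of Ier5 and Gadd45g overlapped by these transcripts, whereas by the Ier5 form of 2101 bases, which held 24771 of its 25497 counts, Ier5 stood at 6.70 ± 0.67 and its libraries lay above those of Gadd45g. These were followed by Ier5l at 2.11 ± 0.41, Btg2 at 1.43 ± 0.21, Ier3 at 1.31 ± 0.42 and Gadd45a at 1.02 ± 0.26, where neighbours from Btg2 to Gadd45a lay within their spread. Btg1 (0.655 ± 0.080), Ier2 (0.554 ± 0.102) and the Btg3 clone (0.230 ± 0.0063) were the lowest by this measure, and the libraries of Btg1 and Ier2 overlapped. By its form of 1814 bases Btg1 stood at 1.80 ± 0.23 instead, above the mean of Btg2. By its form of 1590 bases, which held 6384 of its 7780 counts, Ier5l stood at 2.86 ± 0.655, near the mean of Gadd45b.

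In the acute lesioned striatum Gadd45g led with 22.7 ± 0.092 CPM per kilobase (SD, n = 3), before Gadd45b at 20.3 ± 1.39 and Btg2 at 17.8 ± 0.51, and Ier5 followed at 5.45 ± 0.41. By its form of 803 bases Gadd45b stood at 23.8 ± 1.84, above the mean of Gadd45g. By its form of 2583 bases Btg2 stood at 21.2 ± 0.60, above the mean of Gadd45b by its top transcript. In the chronic unlesioned striatum Ier5 led with 3.97 ± 0.29, and Gadd45g (2.71 ± 0.27), Gadd45b (2.68 ± 0.36) and Ier5l (2.34 ± 0.30) did not differ beyond their spread. By its form of 1590 bases Ier5l stood at 3.34 ± 0.39, above the means of Gadd45g and Gadd45b, with libraries that overlapped theirs. In the chronic lesioned striatum Gadd45b led with 32.0 ± 4.68, before Gadd45g at 18.4 ± 3.95, Btg2 at 11.9 ± 4.25, Ier5 at 8.21 ± 0.70 and Ier3 at 5.86 ± 1.83. Within that group the libraries of Gadd45g and Btg2, of Btg2 and Ier5, and of Ier5 and Ier3 overlapped, so that these neighbours did not differ beyond their spread by the top transcripts. By its form of 2101 bases Ier5 stood at 12.5 ± 1.08, above the mean of Btg2 by its top transcript and above all libraries of Ier3. By its form of 2583 bases Btg2 stood at 14.2 ± 5.07, above both means of Ier5. Summed over its 3 members, the Gadd45 family had 7.83 ± 0.41 CPM per kilobase in the acute unlesioned, 43.9 ± 1.76 in the acute lesioned, 6.12 ± 0.14 in the chronic unlesioned and 51.1 ± 8.45 in the chronic lesioned striatum.

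The genes with profiles most like those of Gadd45b, Btg2 and Ier2 were found by the root mean square difference of log2(CPM + 0.5), centred on each gene's mean over the 12 libraries, among 10604 genes. Nearest to Gadd45b were Nfkbid (0.167), an atypical inhibitor of NF-kB, Kdm6b (0.189), a demethylase of H3K27me3, and Irs2 (0.196), an insulin receptor substrate, against 1.54 for the size of the Gadd45b profile itself. Kdm6b was at 7.13 to 8.67 CPM in the acute unlesioned, 48.2 to 53.9 CPM in the acute lesioned, 6.30 to 7.59 CPM in the chronic unlesioned and 65.3 to 73.8 CPM in the chronic lesioned libraries. Like Gadd45b, it was higher in all chronic than in all acute lesioned libraries.

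Nearest to Btg2 were the transcription factor genes Atf3 (0.294) and Egr4 (0.311) and the synaptic gene Arc (0.330), against 1.84 for Btg2 itself. Atf3 was at 0.435 to 0.742 CPM in the acute unlesioned, 11.3 to 17.0 CPM in the acute lesioned, 0.193 to 0.242 CPM in the chronic unlesioned and 4.28 to 7.39 CPM in the chronic lesioned libraries. Like Btg2, it was lower after chronic L-DOPA on both sides. Among the genes near Ier2 were the general transcription factor subunit Taf13 (0.158) and the transcription factor gene Cebpb (0.159), against 0.428 for Ier2 itself. These differences are descriptions over libraries that share the 4 groups.

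The members were set beside 16 other immediate early genes, a list chosen with earlier results of these data known. Its counts are therefore a description and no independent support. All 16 were called higher in the lesioned striatum, against 6.85% of all transcripts after acute and 7.71% after chronic L-DOPA. Their median log2 fold change was 2.96 after acute and 3.55 after chronic L-DOPA, against 0.02 and -0.01 over all genes. Atf3 had the largest rise in the acute (4.73, edgeR adjusted p = 8.26e-09) and Fosb in the chronic comparison (4.94, edgeR adjusted p = 6.07e-09). On the lesioned side 9 of the 16 were lower and 3 higher after chronic than after acute L-DOPA, against 11.2% and 12.1% of all transcripts. The fall was largest for Atf3 (-1.29, edgeR adjusted p = 0.00108) and the rise for the MAP kinase phosphatase gene Dusp1 (0.85, edgeR adjusted p = 0.000279). On the unlesioned side 10 were lower and none higher, against 1.64% and 0.968% of all transcripts. The change of lesion effect was called higher for 6 of the 16 and lower for none, against 3.22% and 1.3% of all transcripts. Dusp1 stood at 1.17 (edgeR adjusted p = 0.000150). Between treatments Btg2, Gadd45g, Ier2 and Gadd45a had values below 0 on both sides, of which the test called Ier2 on the lesioned and Btg2 and Gadd45g on the unlesioned side.

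Of 14 tested genes of the Tob and CCR4-NOT group, the known partners of the Btg proteins, 3 rose and 3 fell in the acute comparison, against 12.9% of all transcripts called in either direction, with Pabpc1, the poly(A) binding protein gene, the highest at 0.64 (log2, edgeR adjusted p = 3.82e-05). In the chronic comparison, where 12% of all transcripts were called, 2 of the 14 passed the test. Pabpc1 rose by 0.82 (edgeR adjusted p = 8.09e-05) and Cnot1, the scaffold of the deadenylase, fell by 0.43 (edgeR adjusted p = 0.0262). Tob2, a relative of the Btg genes, was the one gene of the group called between chronic and acute lesioned striatum, against 23.3% of all transcripts. It fell there by 0.79 (edgeR adjusted p = 7.94e-05), and its lesion effect changed by -0.73 (edgeR adjusted p = 0.00217). Over the group the median was -0.09 and -0.08 in the lesion comparisons.

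Of 8 tested partners of Gadd45, Pcna rose by 1.23 (log2, edgeR adjusted p = 2.78e-07) and 2 genes fell in the acute comparison, where 12.9% of all transcripts were called. In the chronic comparison Map2k3, a kinase upstream of p38, rose by 1.22 (edgeR adjusted p = 4.53e-05) and Pcna was called with it, while none of the 7 tested genes fell. Of all transcripts 12% were called there. On the lesioned side 3 of 8 were higher and 1 lower after chronic than after acute L-DOPA, with Map2k3 at 1.31 (edgeR adjusted p = 2.20e-05) and Pcna the lower one at -0.32 (edgeR adjusted p = 0.0296). The Map2k3 lesion effect changed by 1.05 (edgeR adjusted p = 0.00170). Of 9 genes linked to DNA demethylation, only Bdnf was called in the acute comparison, at -1.88 (edgeR adjusted p = 0.0458). Bdnf was low, at 0.122 to 0.575 CPM in the acute unlesioned and 0.0347 to 0.144 CPM (3 to 19 counts) in the acute lesioned libraries, which overlapped. The cortical glutamatergic markers had a median of -1.42 in the same comparison, and their part in the Bdnf value was not tested. In the chronic comparison only Tet3, a methylcytosine dioxygenase gene, was called, at 1.44 (edgeR adjusted p = 2.40e-05). Tet3 was 1.28 higher on the lesioned side after chronic than after acute L-DOPA (edgeR adjusted p = 3.27e-05), and its lesion effect changed by 1.27 (edgeR adjusted p = 0.000210).

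Of 15 p53 targets outside the members, 3 rose and 1 fell in each lesion comparison, led by Cdkn1a, the cell cycle inhibitor p21, at 1.69 after acute (log2, edgeR adjusted p = 1.11e-05) and 2.16 after chronic L-DOPA (edgeR adjusted p = 5.47e-05). Of all transcripts 12.9% were called in the acute and 12% in the chronic comparison. The median over the 15 p53 targets was 0.10 and 0.09. On the lesioned side 2 of the 15 were higher and 3 lower after chronic than after acute L-DOPA, with Perp at 1.12 (edgeR adjusted p = 0.000362) and Phlda3 at -0.83 (edgeR adjusted p = 0.0113) at the ends. Of the NF-kB targets listed with Ier3, 1 of 8 rose in the acute comparison, Relb by 0.66 (edgeR adjusted p = 0.00616). That is near the 12.9% of all transcripts called. In the chronic comparison, where Ier3 rose, Relb rose by 0.65 (edgeR adjusted p = 0.0145) and Tnfaip3 fell by 1.02 (edgeR adjusted p = 0.00313) among 7 tested. Between chronic and acute lesioned striatum 4 of 8 fell and none rose, against 11.2% and 12.1% of all transcripts. Bcl3 had the largest fall at -1.65 (edgeR adjusted p = 0.0381). Ier3 was higher in that comparison, and its relation to these genes was not tested.

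Of 10 HSF1-dependent chaperone genes, listed for the known tie of Ier5 to HSF1, 4 rose in the acute and 2 in the chronic comparison, and none fell. Of all transcripts 6.85% and 7.71% were called higher in these comparisons. Dnajb1 rose by 3.64 (log2, edgeR adjusted p = 4.55e-07) and 1.51 (edgeR adjusted p = 0.00781). On the lesioned side 9 of 10 fell from acute to chronic L-DOPA, against 11.2% of all transcripts, led by Hspa1a at -3.32 (edgeR adjusted p = 0.00233). Ier5 was higher in that comparison, and its relation to these genes was not tested. Of 8 subunits of the PP2A complex with B55, Ppp2ca, the catalytic subunit, rose by 0.39 (edgeR adjusted p = 0.00110) and 0.38 (edgeR adjusted p = 0.00816) in the lesion comparisons. Ppp2r2a, a B55 subunit, fell by 0.45 after acute L-DOPA (edgeR adjusted p = 0.000543). On the unlesioned side, outside the immediate early genes and the cell type markers, Hsph1 was the one listed gene that was called between treatments, at -0.68 (edgeR adjusted p = 0.0272). Outside the immediate early genes, the change of lesion effect was called for Dnajb1, at -2.13 (edgeR adjusted p = 0.00847), for the p53 target Perp, at 0.84 (edgeR adjusted p = 0.0183), and for the B55 subunit gene Ppp2r2b, at 0.41 (edgeR adjusted p = 0.0239), beside Tob2, Map2k3 and Tet3 above.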

How the data were processed

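RNA was taken from striatal punches of C57BL/6J mice and sequenced as 12 TruSeq libraries in 4 groups of 3. The design text gives 12 mice, 3 for each of the 4 conditions. The authors mapped the reads to mm9 with Genomatix software and tested them with DESeq, and deposited 1 table of 189660 transcripts with raw read counts per transcript and library. The same table holds a deposited normalized expression signal per library. Multiplied by transcript length and library total and divided by the count, it was within 10% of its own library's median for 98.0% of the values checked. It served for no test. The counter's treatment of strand and of reads shared by transcripts is not given in the sources used here. Columns of the authors' own comparisons, which hold fold changes and p-values, were not used, nor were 36 columns of sample values repeated beside them.

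The 296 transcripts that name no gene, with 0.0485% of the counts, were left out. Counts were tested with edgeR 4.0.16 (R 4.3.3, limma 3.58.1) by quasi-likelihood, after filterByExpr and TMM scaling, with Benjamini-Hochberg adjustment over all transcripts tested and a threshold of 0.05. The 4 pairs of groups were fitted separately, and the interaction on all 12 libraries. The scripts were tested on simulated data. CPM is the count per 1000000 counts after TMM scaling (by library total alone for means over all 12 libraries), and at 3 counts its floor was 0.0171 to 0.0347 CPM. Alternatives were DESeq2 1.42.0, its size factors in edgeR, no filter, 1 transcript or the sum of transcripts per gene, a threshold of 0.01, all libraries in 1 fit, each library left out and the replicate number as a block. Levels per kilobase and ratios by other transcripts were added after the data were seen. Replicates of a group differed by more than sampling noise (chi-square per degree of freedom 7.35 to 28.7). Lesioned and unlesioned libraries with the same replicate number deviated together from their group means in all 6 pairs (r from 0.151 to 0.565 over 12797 genes). The lowest, chronic pair 3, was no higher than chronic unlesioned 3 with lesioned 1 (0.156). Chronic unlesioned 1 with lesioned 3 had 0.0862, and all other pairs of different numbers were negative. The numbers were taken to pair libraries within a treatment only in the blocked fits and the counts of pairs. The main fits treated all libraries as unpaired. The labels do not state that libraries with the same number share a mouse.

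Coordinates are those of the table. The mm9 annotation used beside it had the same coordinates for 94.8% of the Ensembl transcripts found in both. Promoters are the 300 bases before the start of the RefSeq transcripts. The members and the lists of related genes and markers were chosen with earlier results of these data known. The text names the 10 members, the 3 genes with the smallest profile difference from Gadd45b, Btg2 and Ier2, and the called genes with the largest rise or fall in each list. Cxadr and E230016M11Rik, which overlap members, were added after their values were seen.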

Additional observations from a re-analysis of the deposited data

Results flagged for a closer look

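For 3 members the difference between the lesioned and the unlesioned striatum was itself different between the 2 treatments, by the interaction test in edgeR over all 12 libraries. The change from acute to chronic L-DOPA was 1.88 (log2) for Ier3, 0.76 for Ier5 and 0.76 for Gadd45b. For all 3 the lesioned libraries were higher after chronic than after acute L-DOPA, whereas their unlesioned libraries overlapped between treatments. The chronic lesioned level of Ier3 was between 4.99 and 8.87 CPM, and replicate 2, with the highest Ier3, had the lowest Btg2 (21.5 CPM) and Gadd45g (15.2 CPM) of its group. That library also had the lowest summed spiny neuron markers (981 CPM) and the highest summed astrocyte (217 CPM) and oligodendrocyte markers (2098 CPM, against 1162 and 1356 CPM) of its group, and their part in its values was not tested. With 3 libraries in each group no single library was tested as standing apart.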

How the results depend on the processing

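Of the single-member values under alternative settings, 813 kept direction and side of the threshold, 42 lost a call, 11 gained one and 15 changed direction. The count of members called on the unlesioned side, 2 in the main fit, was 0 at a threshold of 0.01, with transcripts summed per gene and with all 12 libraries in 1 fit, and 0 to 2 when a library was left out. Beside these counts of 0, 4 members had an unadjusted p under 0.05 in the main edgeR fit and DESeq2 called 2 at 0.05. With the replicate number as a block, members called went from 7 to 9 in the acute and from 3 to 4 in the change of lesion effect, and remained 9 in number in the chronic comparison. All transcripts called with the block numbered 28237 against 16684 (acute), 27505 against 15295 (chronic) and 15879 against 5911 (change). Across treatments the numbers do not pair mice, and the block called 6 members on the lesioned and 2 on the unlesioned side. The values that changed direction were not called in either setting. When a library was left out they ranged from -0.48 to 0.12 for the acute difference of Gadd45a, -0.34 to 0.24 for its change of lesion effect, -0.19 to 0.030 for Ier5l on the lesioned side, and, on the unlesioned side, -0.29 to 0.16 for Ier3, -0.17 to 0.014 for Gadd45b and -0.071 to 0.29 for Btg1. By other transcripts the change of lesion effect was -0.21 and -0.24 for Btg3, and 0.11 and 0.23 for Gadd45a. The cause was not tested. Depth limits the RefSeq form of Btg3, at 4 to 14 counts in a library.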
